A study of Homo sapiens with 30 samples.

Results

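Gene expression was compared between UMUC1 cells that stably expressed a catalytic-site mutant of UTX, called HEAA, and UMUC1 cells with an empty vector (EV), both grown in full medium. Members were chosen by label alone: the 3 HEAA and 3 EV libraries in full medium, which are 6 of the 30 samples of the series, and every gene that passed a count filter, 19629 of 58288. UMUC1 is an established human bladder cancer cell line and, per the series record, has a loss-of-function mutation in UTX, the protein of the gene KDM6A. HEAA is UTX with the substitutions H1146A and E1148A, which the labels place at iron-binding residues of the JmjC catalytic domain; it was expressed from pSIN-puro, and EV cells carried pSIN-puro without an insert. Full medium was MEM with 10% fetal bovine serum, and RNA was harvested on day 3. The other groups used had 3 libraries each. UTX cells expressed wild type UTX from the same vector in full medium, and HEAA and EV cells were also grown in sphere medium, which is MEM lacking serum, supplemented with the growth factors FGF2 and EGF (20 ng/ml each) and with B27 that holds no vitamin A. Every group therefore carried pSIN-puro and the mutant endogenous gene, and the expressed UTX came from a vector and not from the gene's own promoter. Replicates are numbered 1 to 3 in the labels, which do not call them separate cultures; the p-values therefore reflect only the spread among these libraries, and that spread may be technical.

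UTX is a demethylase that removes methyl groups from lysine 27 of histone H3, a mark laid down by Polycomb repressive complex 2 (PRC2) at silenced genes. It is also a subunit of the KMT2C and KMT2D complexes, which methylate lysine 4 of histone H3 at enhancers, and some functions of UTX are known not to need its enzyme activity. KDM6A is among the chromatin genes most often mutated in bladder cancer, an epithelial tumour whose cells can show luminal (umbrella cell), basal or squamous programs.

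Total counts were 25623028 to 30029477 in HEAA libraries and 27425684 to 39415722 in EV libraries. Genes of the RPL and RPS families held 4.51% to 4.76% of counts in HEAA libraries, 4.51% to 5.09% in UTX libraries and 6.59% to 6.99% in EV libraries. Mitochondrial RNA held 4.89% to 5.69% in HEAA libraries and 4.43% to 5.15% in EV libraries, and the 20 most abundant genes held 9.36% to 9.98% and 9.15% to 9.59%. Epithelial and urothelial markers were high in both groups, with EPCAM at 160.0 to 160.2 CPM (counts per 1000000 counts of a library) in HEAA libraries and 172.5 to 176.3 CPM in EV libraries, and GATA3 at 59.1 to 63.5 and 59.4 to 60.5 CPM. UPK3A, a defining marker of terminal umbrella cells, was at 0 in all 6 libraries. Of the fibroblast markers 8 of 11 passed the count filter. Their summed level was 857.2 to 907.8 CPM in HEAA libraries and 676.6 to 719.3 CPM in EV libraries, nearly all of it FBLN1. LUM was also expressed, at 31.62 to 34.97 CPM in HEAA libraries and 38.68 to 47.02 CPM in EV libraries. COL1A1 was at 6.919 to 8.138 CPM in HEAA libraries and 4.959 to 5.95 CPM in EV libraries. DCN, PDGFRA and THY1 were at or near 0 in both groups. Of the leukocyte and endothelial markers 6 of 12 passed, with a summed level of 9.67 to 10.03 CPM in HEAA libraries and 6.20 to 7.77 CPM in EV libraries, and KDR was at 0 in both.

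KDM6A checked which libraries carried a UTX construct. It lies on chromosome X, 44873177 to 45112602 (plus strand; positions here follow the GENCODE v29 annotation of GRCh38, a build the processing notes do not name). Its level was 692, 687 and 702 CPM in the 3 HEAA libraries and 16.5, 17.9 and 17.8 CPM in the 3 EV libraries, a log2 fold change of 5.31 ± 0.05 (39.8-fold, edgeR quasi-likelihood test, adjusted p = 6.5e-26). HEAA RNA was also slightly more abundant than wild type UTX RNA, at 694 ± 7.34 CPM in HEAA cells against 579 ± 12.7 CPM in UTX cells (SD, n = 3 each; log2 fold change 0.26 ± 0.04, adjusted p = 2.6e-05). The counts per gene do not separate vector from endogenous RNA, so the level of the cells' own KDM6A in HEAA cells is not known. They also do not show the substitutions, so the HEAA and UTX labels were not checked against each other.

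Between HEAA and EV cells the RNA level of many genes differed by small amounts and that of a smaller number by large ones. A difference between the stable cell populations and an effect of the construct they carry cannot be told apart. At an adjusted p under 0.05, 4554 genes were higher in HEAA cells (23.2% of the genes tested) and 4975 were lower (25.3%). These shares are the background for counts of list members in HEAA against EV cells in full medium. At least 2-fold changes were fewer and mostly upward, with 989 genes higher (5.04%) and 328 lower (1.67%). All 3 HEAA libraries lay outside the range of the 3 EV libraries, on one side, for 11478 genes (58.5%). The median log2 fold change over all genes tested was 0.03. Where a gene list below had no gene called in 1 direction in HEAA against EV cells by edgeR, DESeq2 and an unadjusted p under 0.05 also gave 0. In bulk RNA, a change in the share of cells that express a gene and a change in RNA per cell cannot be told apart.

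**Figure D1:**
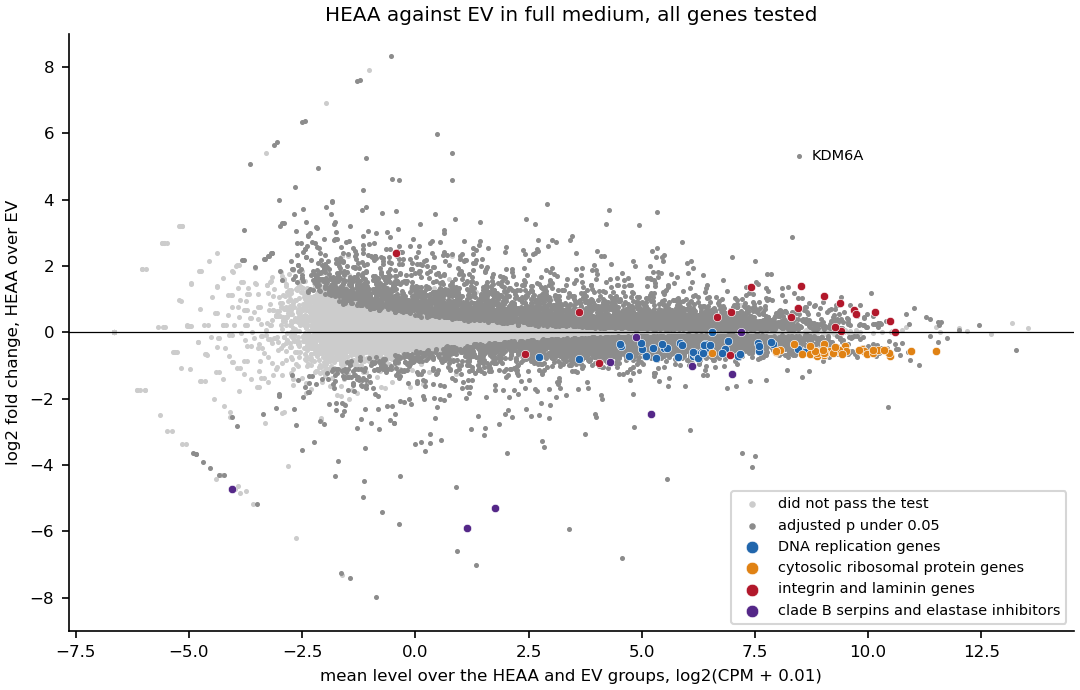
Log2 fold change of HEAA over EV in full medium for each gene tested (y axis) against its mean level over both groups as log2(CPM + 0.01) (x axis), with 4 gene lists in colour and KDM6A named. DNA replication and ribosomal protein genes form narrow bands just below 0, while integrin and laminin genes lie mostly above 0 and clade B serpins spread far below it.

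Among genes that averaged 2 CPM or more over both groups, the largest rises after KDM6A itself were mostly in surface, adhesion and cytoskeletal genes. SLITRK6, a transmembrane protein of a family that shapes neurite growth, had 14.5, 14.1 and 13.5 CPM in HEAA libraries against 1.13, 0.762 and 0.993 CPM in EV libraries (log2 fold change 3.87 ± 0.20, adjusted p = 1.3e-12). MSN, which encodes moesin, a linker of actin to the plasma membrane, had 35.2, 35.9 and 37.1 CPM in HEAA libraries against 2.52, 2.61 and 3.13 CPM in EV libraries (12.9-fold, adjusted p = 1.2e-20). All 3 HEAA libraries were above all EV libraries for both genes, with little spread inside a group. OAT, the mitochondrial ornithine aminotransferase, rose 12.2-fold to 74.4 ± 2.27 CPM in HEAA cells, against 6.09 ± 0.491 CPM in EV cells (SD, n = 3 each). MFAP5, a microfibril protein of the extracellular matrix, rose 10.7-fold, VILL, a villin-like protein, 10.0-fold, and ATG9B, a membrane protein of autophagosome formation, 9.61-fold. CDH2, the N-cadherin of mesenchymal and neural cells, had 9.67, 11.6 and 12.5 CPM in HEAA libraries against 1.10, 1.29 and 1.12 CPM in EV libraries, a 9.61-fold rise. GJA5, the gap junction protein connexin 40, rose 9.44-fold and FLNC, the actin crosslinker filamin C, 7.51-fold, and their adjusted p values were 9.1e-20 and 4.0e-16.

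By the same rule, the largest falls were mostly in genes of stratified squamous epithelium, secreted matrix proteins and protease inhibitors. DSG1, the desmosomal cadherin of upper epidermal layers (chromosome 18, 31318089 to 31357029), had 3 counts over the 3 HEAA libraries against 517 over the 3 EV libraries, a ratio of 146 (95% counting interval 49.8 to 712). KRT1, a keratin of suprabasal skin cells (chromosome 12, 52674736 to 52680407), had 0.0706, 0.732 and 0.445 CPM in HEAA libraries against 46.4, 49.5 and 44.4 CPM in EV libraries (log2 fold change -6.81 ± 0.18, adjusted p = 1.1e-17). The HEAA libraries differed among themselves, with the first far below the other two, and all stayed under 1 CPM. S100A8 and S100A9 encode the subunits of calprotectin, a secreted antimicrobial complex, and both fell. S100A8 had 0.212, 0.476 and 0.318 CPM in HEAA libraries against 21.8, 21.9 and 17.9 CPM in EV libraries. S100A9 had 19.6, 20.2 and 19.6 CPM in HEAA libraries against 327, 336 and 323 CPM in EV libraries. Their falls were 60.7-fold and 16.6-fold. Both genes are also expressed by myeloid cells; the leukocyte gene PTPRC held 7 counts over the HEAA and 35 over the EV libraries, and the myeloid gene LYZ held 5 and 6. SERPINB3, the squamous cell carcinoma antigen and a protease inhibitor, had 6 counts in all over the HEAA libraries, all in 1 library, against 443 over the EV libraries. PI3, which encodes the elastase inhibitor elafin, had 0.0706, 0.366 and 0.0636 CPM in HEAA libraries against 7.58, 6.80 and 5.51 CPM in EV libraries.

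Among secreted genes, SPARC, a collagen-binding matricellular protein, fell to 3.60, 4.28 and 4.71 CPM in HEAA libraries, against 87.1, 93.9 and 90.5 CPM in EV libraries (21.5-fold, adjusted p = 1.1e-20). SPP1, which encodes osteopontin, had 20.1, 27.2 and 27.9 CPM in HEAA libraries against 330.0, 362 and 312 CPM in EV libraries. TFPI2, a Kunitz-type inhibitor of serine proteases, had 21.9, 22.6 and 21.9 CPM in HEAA libraries against 276, 276 and 272 CPM in EV libraries, with a narrow range in each group. BMP3, a member of the BMP family of secreted factors, fell 12.6-fold to 0.594 ± 0.104 CPM in HEAA cells, against 7.55 ± 0.776 CPM in EV cells (SD, n = 3 each).

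**Figure D2:**
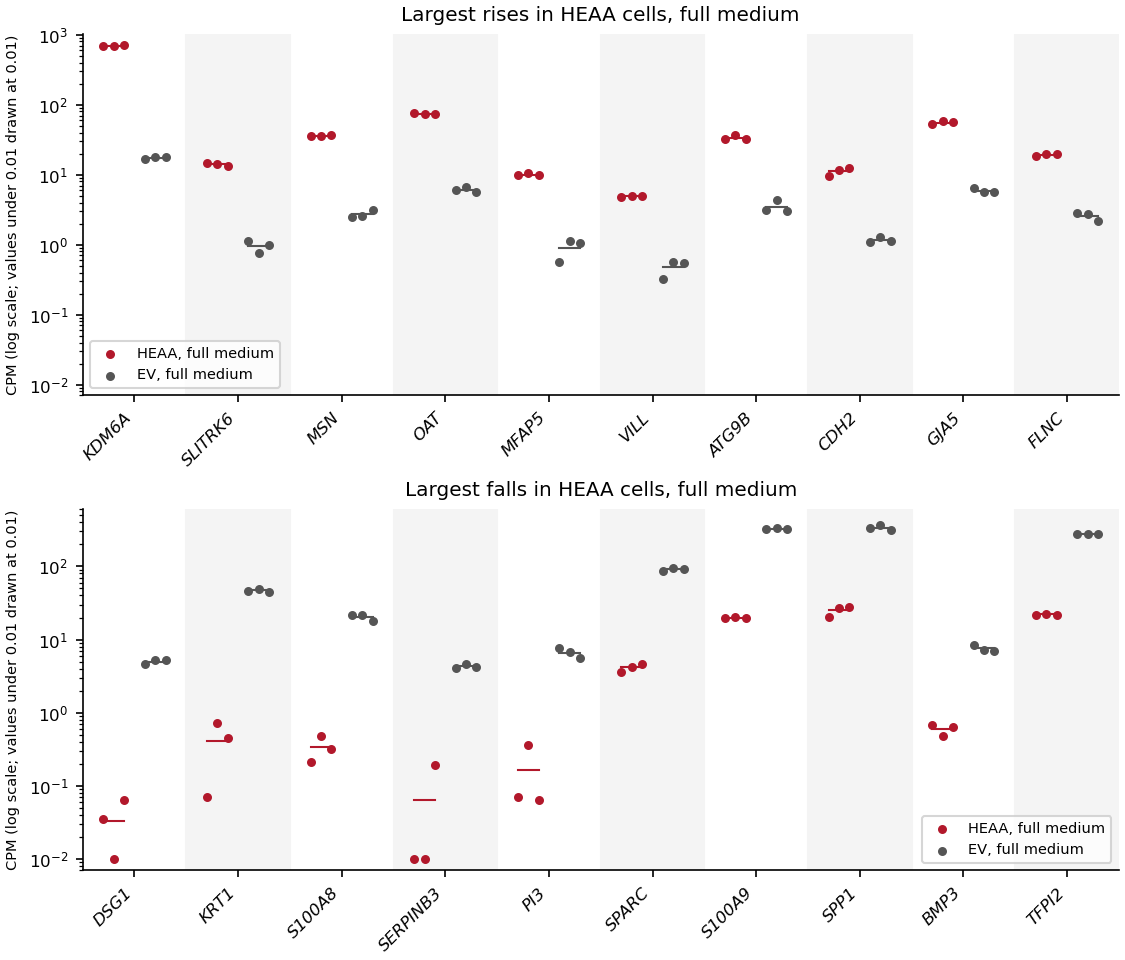
Level in CPM (log scale, y axis) of the 10 largest rises (top) and 10 largest falls (bottom) in each HEAA library (red) and EV library (grey), 3 dots per group with a line at the mean, and values under 0.01 are drawn at 0.01. The groups do not overlap for any of the 20 genes, which the choice of genes required.

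By absolute level, the largest gains besides KDM6A were FLNA, MYH9 and PLEC, which encode filamin A, non-muscle myosin IIA and the cytolinker plectin, the matrix genes FN1 (fibronectin) and THBS1 (thrombospondin 1), the amino acid transporter SLC7A5 and the mitochondrial gene ND5. FLNA had 2067, 2217 and 2228 CPM in HEAA libraries against 1412, 1512 and 1481 CPM in EV libraries. FN1 had 1407, 1513 and 1545 CPM in HEAA libraries against 637, 696 and 632 CPM in EV libraries, and no EV library reached any HEAA library for either gene. The largest losses were IGF2, the keratins KRT5 and KRT13, the ribosomal protein genes RPL4, RPL13A and RPLP0, the translation elongation factor EEF1A1 and TPT1, which encodes translationally controlled tumour protein. IGF2, a growth factor that signals through the IGF1 receptor, had 1519, 1473 and 1532 CPM in HEAA libraries against 3036, 2904 and 3007 CPM in EV libraries (log2 fold change -0.98 ± 0.03). KRT5, the partner keratin of basal epithelial cells, had 463, 461 and 512 CPM in HEAA libraries against 2264, 2204 and 2393 CPM in EV libraries (log2 fold change -2.26 ± 0.05, adjusted p = 1.1e-18).

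Genes of DNA replication were lower in HEAA cells almost without exception. Of 42 such genes 41 were lower and 0 higher, against backgrounds of 25.3% lower and 23.2% higher, and the median log2 fold change was -0.53, against 0.03 over all genes. The exception was RFC1, the large subunit of the clamp loader, with a log2 fold change of 0.02 ± 0.04. MCM3, a subunit of the replicative helicase, had 113, 110.3 and 111 CPM in HEAA libraries against 175, 176 and 175 CPM in EV libraries. MCM6, another subunit, had 111, 100.4 and 107 CPM in HEAA libraries against 172, 178 and 172 CPM in EV libraries. Both were lower in every HEAA library than in any EV library. GINS2, a subunit of the GINS complex that activates this helicase, had 42.3, 40.1 and 43.5 CPM in HEAA libraries against 69.5, 69.2 and 72.1 CPM in EV libraries. CDT1, which loads the helicase onto origins, had 56.9, 55.9 and 56.0 CPM in HEAA libraries against 93.9, 95.9 and 98.3 CPM in EV libraries. These 4 falls were 1.58-, 1.64-, 1.67- and 1.71-fold, with adjusted p values of 1.1e-12, 6.8e-12, 7.8e-12 and 1.5e-11. None of the 42 genes changed 2-fold.

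Many replication genes are known targets of E2F transcription factors. For letters of E2F sites, the 250 bases before the start of each gene (RefSeq, GRCh38.p14) were searched on both strands for TTTGGCGC, TTTCCCGC, TTTGCCGC and TTTCGCGC; a site read on both strands can match more than once. A match was found in 12 of the 35 replication genes with a promoter in the reference table (34.3%), against 499 of 12144 over all genes tested (4.11%), 2 of 30 ribosomal protein genes (6.67%), 1 of 21 ribosome biogenesis genes (4.76%) and 2 of 25 mitosis genes (8.0%). The promoters of the 4 replication genes with values above are printed 5′ to 3′ on the strand of the gene, with the matched letters in capitals, to show where such matches sit.
MCM3, chr6:52284743-52284992, minus strand: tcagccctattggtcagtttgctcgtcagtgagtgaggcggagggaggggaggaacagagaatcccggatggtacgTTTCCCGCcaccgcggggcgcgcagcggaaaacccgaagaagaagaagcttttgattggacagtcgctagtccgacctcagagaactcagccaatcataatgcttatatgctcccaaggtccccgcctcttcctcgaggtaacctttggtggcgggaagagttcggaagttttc
MCM6, chr2:135876444-135876693, minus strand: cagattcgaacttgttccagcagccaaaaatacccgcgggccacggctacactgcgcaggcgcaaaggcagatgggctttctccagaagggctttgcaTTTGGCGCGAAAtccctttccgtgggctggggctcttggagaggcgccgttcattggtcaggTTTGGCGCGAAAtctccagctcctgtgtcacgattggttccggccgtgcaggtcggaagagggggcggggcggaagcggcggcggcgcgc
GINS2, chr16:85688955-85689204, minus strand: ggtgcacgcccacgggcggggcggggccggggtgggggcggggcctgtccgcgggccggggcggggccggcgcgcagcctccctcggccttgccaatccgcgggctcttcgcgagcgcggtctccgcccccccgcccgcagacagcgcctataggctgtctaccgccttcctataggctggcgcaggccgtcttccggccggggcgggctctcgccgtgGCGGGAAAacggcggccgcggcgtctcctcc
CDT1, chr16:88803539-88803788, plus strand: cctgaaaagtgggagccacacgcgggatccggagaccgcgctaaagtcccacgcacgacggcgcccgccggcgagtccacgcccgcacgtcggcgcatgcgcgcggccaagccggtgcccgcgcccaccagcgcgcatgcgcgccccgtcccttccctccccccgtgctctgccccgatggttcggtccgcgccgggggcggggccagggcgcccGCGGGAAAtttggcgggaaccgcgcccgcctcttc
MCM6 held 4 overlapping matches and the other promoters 1 each. A match is a description of the letters and does not show binding.

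Regulators of entry into S phase were also more often lower than higher. Of 22 genes of G1 cyclins, cyclin-dependent kinases (CDK), the E2F and RB families and CDK inhibitors, 11 were lower and 5 higher, and 4 of the higher genes were CDK inhibitors. CDKN1A, the inhibitor p21, had 310.3, 302 and 314 CPM in HEAA libraries against 126, 125 and 117 CPM in EV libraries (2.51-fold, adjusted p = 1.6e-15). CDKN2B, the CDK4 and CDK6 inhibitor p15, had 95.7, 92.0 and 98.7 CPM in HEAA libraries against 37.5, 38.4 and 38.1 CPM in EV libraries (2.51-fold, adjusted p = 8.9e-16). CDKN2C and CDKN2D rose 1.52- and 1.54-fold, and the fifth riser was CCND1, cyclin D1, by 1.14-fold. CDK4 fell to 114, 109.6 and 116 CPM in HEAA libraries, against 165, 165 and 176 CPM in EV libraries, and E2F8, an atypical repressor E2F, fell 1.64-fold. The retinoblastoma gene RB1 and the inhibitor CDKN1B did not pass the test, with log2 fold changes of -0.04 ± 0.05 and -0.02 ± 0.05. Genes of mitosis were less uniform, with 11 of 30 lower, 3 higher and a median of -0.06. The higher ones were AURKA, a kinase of spindle poles, TPX2, its activator, and CENPF, while AURKB, the kinase of the chromosomal passenger complex, and MAD2L1, a spindle checkpoint protein, fell 1.35- and 1.40-fold.

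Genes that make ribosomes were also lower. All 25 of 25 ribosome biogenesis genes were lower (median -0.47), as were all 40 of 40 cytosolic ribosomal protein genes (median -0.57). FBL, the methyltransferase fibrillarin of nucleolar RNA processing, had 93.1, 88.2 and 99.98 CPM in HEAA libraries against 166, 167 and 185 CPM in EV libraries (1.84-fold, adjusted p = 8.4e-11). NOP56, a core protein of box C/D small nucleolar particles, had 215, 228 and 216 CPM in HEAA libraries against 366, 348 and 351 CPM in EV libraries. NOLC1 and WDR12, factors of nucleolar assembly and large-subunit maturation, fell 1.53- and 1.59-fold. Among ribosomal protein genes, RPL3, RPL14, RPL27 and RPS3 fell 1.63-, 1.57-, 1.63- and 1.55-fold, with adjusted p values of 1.0e-11, 3.5e-11, 9.5e-12 and 5.0e-11. RPL4 had 2349, 2249 and 2404 CPM in HEAA libraries against 3427, 3371 and 3582 CPM in EV libraries. Ribosomal protein genes have many processed pseudogenes, and how counts were shared with them was not stated. The E-box CACGTG (the same on both strands), a MYC site, was found in 2 of 21 ribosome biogenesis promoters (9.52%), against 8.62% over all genes tested. In the other lists searched it was found in 2 of 30 ribosomal protein (6.67%), 4 of 35 replication (11.4%) and 5 of 25 mitosis promoters (20.0%). Binding was not tested.

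Nuclear genes of the respiratory chain fell as a block, with 28 of 29 lower and a median of -0.40. NDUFA1, a subunit of complex I, had 60.8, 59.0 and 65.2 CPM in HEAA libraries against 97.2, 93.7 and 98.5 CPM in EV libraries (1.56-fold). COX5A of complex IV and ATP5F1B and ATP5PO of ATP synthase fell 1.37-, 1.35- and 1.46-fold. The exception was ATP5F1A, the alpha subunit of ATP synthase, which was called higher, with a log2 fold change of 0.10 ± 0.03; that call was lost with no filter on low counts and without each of the 6 libraries in turn (edgeR, adjusted p of 0.072 to 0.40). Of 13 genes of the mitochondrial genome 6 were higher and the others did not pass the test; ND5 had 3122, 3595 and 3635 CPM in HEAA libraries against 3011, 2717 and 2697 CPM in EV libraries.

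**Figure D3:**
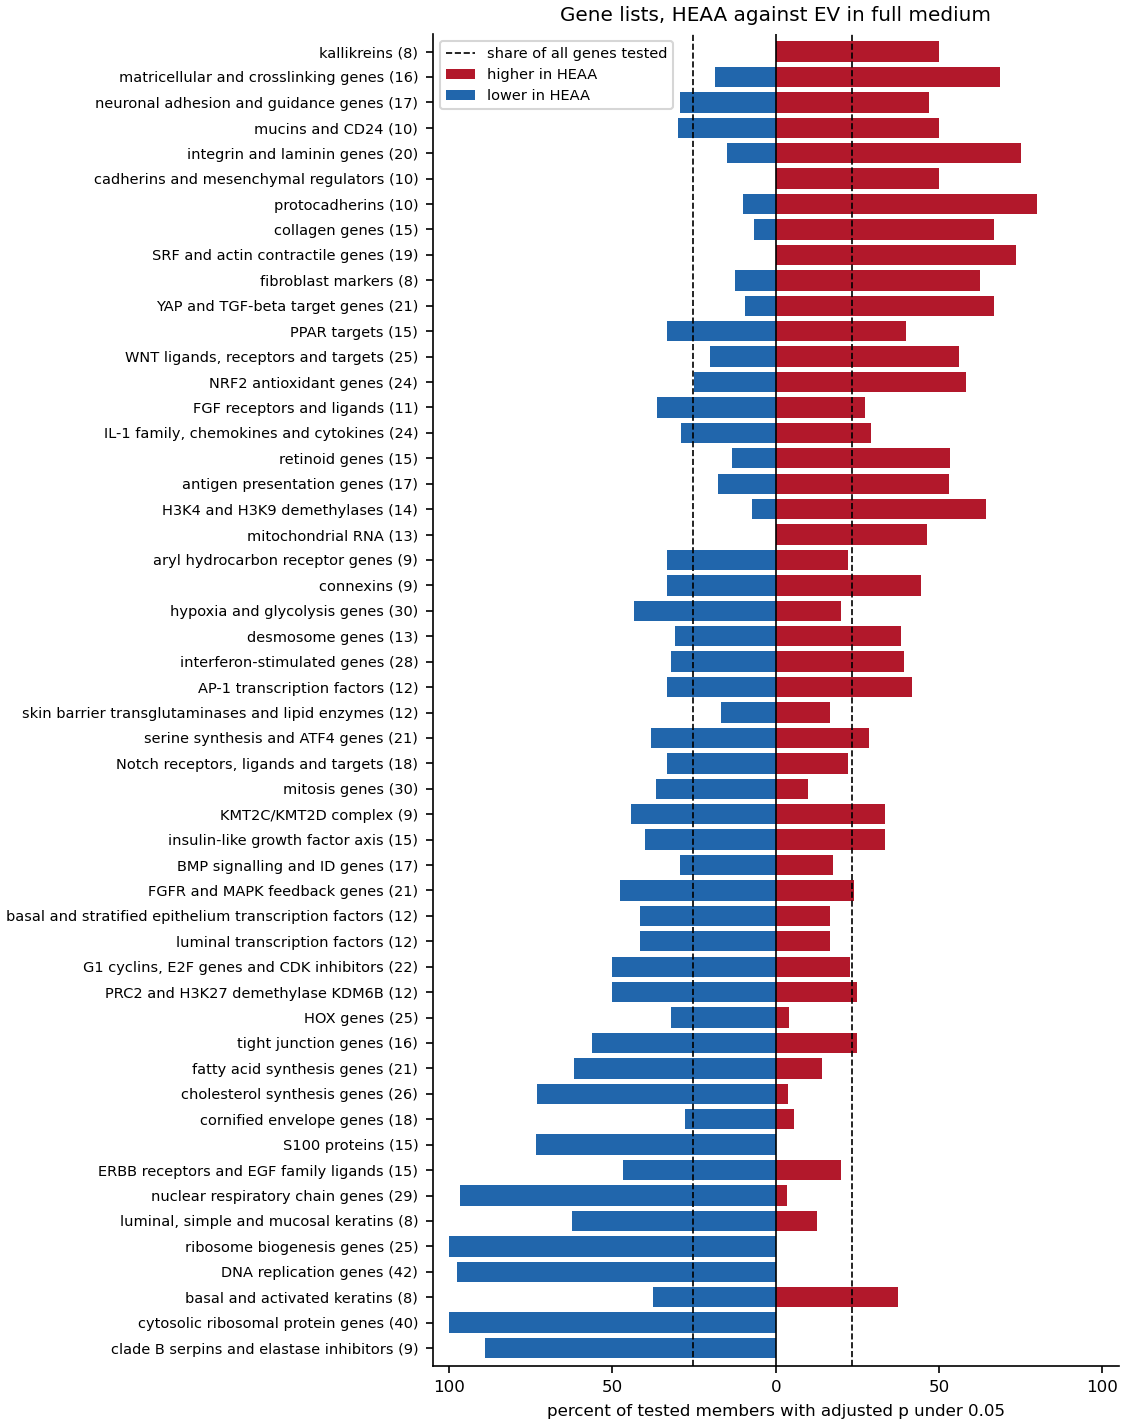
Percent of tested members higher (right, red) and lower (left, blue) in HEAA against EV cells at adjusted p under 0.05, for lists with at least 8 tested members (number in brackets), ordered by median log2 fold change; dashed lines mark the shares over all genes tested, 23.2% and 25.3%. Ribosomal protein, ribosome biogenesis, replication and respiratory chain genes reach or approach 100% lower, and integrin, actin, collagen and protocadherin genes exceed the dashed line on the higher side.

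Keratins changed in both directions. Among basal and activated keratins, KRT5, KRT6A and KRT6C fell, KRT15, KRT16 and KRT17 rose, and KRT14 and KRT6B did not pass the test; with DESeq2 KRT6B passed as lower (adjusted p = 0.0041). KRT6A, a keratin of wounded and squamous epithelium, had 208, 202 and 224 CPM in HEAA libraries against 535, 515 and 558 CPM in EV libraries (2.54-fold, adjusted p = 8.2e-16). KRT14, the usual partner of KRT5, had 13.1, 13.5 and 14.3 CPM in HEAA libraries against 13.04, 12.5 and 12.7 CPM in EV libraries, with a log2 fold change of 0.10 ± 0.06. KRT16 rose 3.50-fold, at 2.54, 3.15 and 3.50 CPM in HEAA libraries and 0.779, 0.909 and 0.918 CPM in EV libraries, and KRT17 rose 1.26-fold at over 1000 CPM in both groups. KRT6A, KRT6B and KRT6C are near-identical copies, so their split is uncertain. All 6 differentiated skin keratins fell (median log2 fold change -2.89). The median was -2.04 with KRT2, which had 0 counts in HEAA cells, at its bound, and its call was lost without EV replicate 1 (edgeR, adjusted p = 0.066). Besides KRT1, KRT10, its partner, had 29.7, 31.0 and 30.7 CPM in HEAA libraries against 94.0, 97.7 and 89.8 CPM in EV libraries (3.08-fold), and KRT23 and KRT78, under 1 CPM in every library, fell 11.2- and 4.92-fold.

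Of 8 luminal, simple and mucosal keratins 5 were lower. KRT13, the keratin of mucosal and intermediate urothelial cells, had 1386, 1386 and 1431 CPM in HEAA libraries against 2484, 2443 and 2543 CPM in EV libraries. KRT4, its mucosal partner, had 0.953, 0.732 and 1.08 CPM in HEAA libraries against 6.66, 6.59 and 5.61 CPM in EV libraries, and KRT7 fell 1.65-fold. KRT20, a marker of umbrella cells, had 2 counts over the HEAA libraries against 116 over the EV libraries, a ratio of 49.2 (95% counting interval 13.3 to 411). The simple epithelial keratins KRT8 and KRT19 did not pass the test, with log2 fold changes of 0.03 ± 0.04 and -0.05 ± 0.05, KRT18 fell 1.11-fold and KRT80 rose 1.24-fold. Uroplakins, the plaque proteins of the urothelial surface, were modestly higher. UPK1B had 651, 678 and 676 CPM in HEAA libraries against 521, 544 and 527 CPM in EV libraries. UPK2 and UPK3B rose 1.35- and 1.52-fold, and UPK1A, under 2 CPM in both groups, had a log2 fold change of -0.25 ± 0.47.

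S100 genes and clade B serpin and elastase inhibitor genes fell where they passed the test. Of 15 S100 genes 11 were lower and 0 higher (median -0.37), with S100A13 and S100A14 down 1.496- and 1.29-fold beside the far larger falls of S100A8 and S100A9. S100A7, psoriasin, had 0 counts over the HEAA libraries against 66 over the EV libraries, at least 18.7-fold lower against a floor of 3 counts over the group. Of 9 clade B serpins and elastase inhibitors 8 were lower (median -1.27), and the other one was SERPINB5, maspin, with a log2 fold change of 0.02 ± 0.04. SERPINB2, plasminogen activator inhibitor 2, had 73.1, 70.5 and 81.3 CPM in HEAA libraries against 179.7, 184 and 179 CPM in EV libraries. SERPINB13, an inhibitor of cathepsins, had 10.6, 11.9 and 11.8 CPM in HEAA libraries against 65.3, 64.5 and 58.7 CPM in EV libraries (5.48-fold). SERPINB3 and SERPINB4 are near-identical copies, and reads may be split between them.

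The cornified envelope, the crosslinked shell of dead skin cells, was expressed at low levels in full medium. Of 18 tested genes 5 were lower, 1 was higher and 12 did not pass the test, against 25.3% lower and 23.2% higher over all genes. SPRR1A, SPRR4, LCE3D and LCE3E, among the 12, had 0 counts in every HEAA and EV library in full medium. They passed the count filter through other groups and could not be called here. SPRR2E had 0 counts over the HEAA and 1 over the EV libraries. The counts of this list are therefore not directly comparable with the shares over all genes. SPRR3, a small proline-rich crosslinking protein, had 0.282, 0.549 and 0.763 CPM in HEAA libraries against 4.68, 4.19 and 3.50 CPM in EV libraries, and SPRR2D had 2 counts over the HEAA libraries against 86 over the EV libraries. CSTA, the protease inhibitor cystatin A, fell 1.52-fold, and the gene that rose was A2ML1, a protease inhibitor of the outer epidermis, 3.60-fold. Genes of skin barrier lipids and transglutaminases split evenly, with 2 of 12 higher (ALOXE3 among them) and 2 lower (CERS3 and SDR9C7). Of these 12, TGM3 likewise had 0 counts in both groups, and ALOX12B had 1 count over each group. SDR9C7 rested on 0 counts over the HEAA and 5 over the EV libraries, and its call was lost with DESeq2 (adjusted p = 0.065), with no filter on low counts, and without EV replicate 2 or any of the HEAA replicates (edgeR, adjusted p up to 0.13). CERS3, the ceramide synthase of the skin barrier, had 1.76, 1.65 and 1.75 CPM in HEAA libraries against 6.52, 6.57 and 6.95 CPM in EV libraries. Kallikreins went the other way: 4 of 8 of these secreted serine proteases were higher and none lower. KLK6 had 97.8, 104 and 104.6 CPM in HEAA libraries against 16.1, 15.2 and 14.9 CPM in EV libraries (6.66-fold, adjusted p = 1.1e-18), and KLK10 had 71.7, 74.0 and 72.5 CPM in HEAA libraries against 15.3, 17.1 and 16.7 CPM in EV libraries (4.43-fold). KLK5 and KLK11 rose 6.48- and 1.78-fold at levels under 3 CPM.

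Among cell junction genes the direction differed by class. In desmosomes, the cadherins DSC1, DSC2, DSC3 and DSG1 fell, while DSG2 and the plaque genes DSP, JUP, PKP1 and PKP2 rose by at most 1.21-fold. The call of DSC1 was lost without EV replicate 2 or HEAA replicate 1, of JUP with no filter on low counts and without EV or HEAA replicate 1, of PKP1 without EV replicate 1 or HEAA replicate 3, and of PKP2 with no filter and without any library but EV replicate 3 (edgeR, adjusted p up to 0.19). DSC3, a desmocollin of basal and squamous cells, had 46.2, 47.0 and 47.7 CPM in HEAA libraries against 119, 116 and 112 CPM in EV libraries (2.47-fold), and DSP, desmoplakin, rose 1.16-fold. Of 16 tight junction genes 9 were lower and 4 higher. CLDN1 and CLDN7, claudins that seal the space between cells, fell 1.40- and 1.51-fold, OCLN and MARVELD3 fell 1.35- and 1.36-fold, and the higher genes included CGN, F11R and TJP3. The call of CGN was lost without HEAA replicate 2 (edgeR, adjusted p = 0.069). Of 9 connexins 4 were higher and 3 lower. GJA1, connexin 43, had 3.67, 2.60 and 3.75 CPM in HEAA libraries against 0.0354, 0.176 and 0.174 CPM in EV libraries, whereas GJB2 and GJB6, the connexins 26 and 30 of stratified epithelium, fell 1.67- and 2.19-fold, to means of 390.0 and 184 CPM in HEAA cells, against 649 and 403 CPM in EV cells.

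Transcription factors of urothelium and stratified epithelium changed in both directions. GRHL3, a regulator of barrier formation, had 7.41, 7.17 and 7.03 CPM in HEAA libraries against 19.4, 20.2 and 21.6 CPM in EV libraries (2.84-fold, adjusted p = 1.5e-13), and ELF5, under 2 CPM in every library, fell 4.52-fold. KLF4 fell 1.42-fold, TBX3 and FOXA1 rose 1.43- and 1.40-fold, and the luminal regulators GATA3 and PPARG had log2 fold changes of 0.02 ± 0.04 and 0.08 ± 0.04, which did not pass. In all 5 of 12 luminal factors were lower and 2 higher. TP63, the regulator of basal epithelial identity, had 112, 102 and 110.3 CPM in HEAA libraries against 134, 126 and 137 CPM in EV libraries (1.22-fold). GRHL1 and KLF3 fell 1.71- and 1.23-fold and TFAP2C rose 1.42-fold, in a list with 5 of 12 lower and 2 higher.

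**Figure D4:**
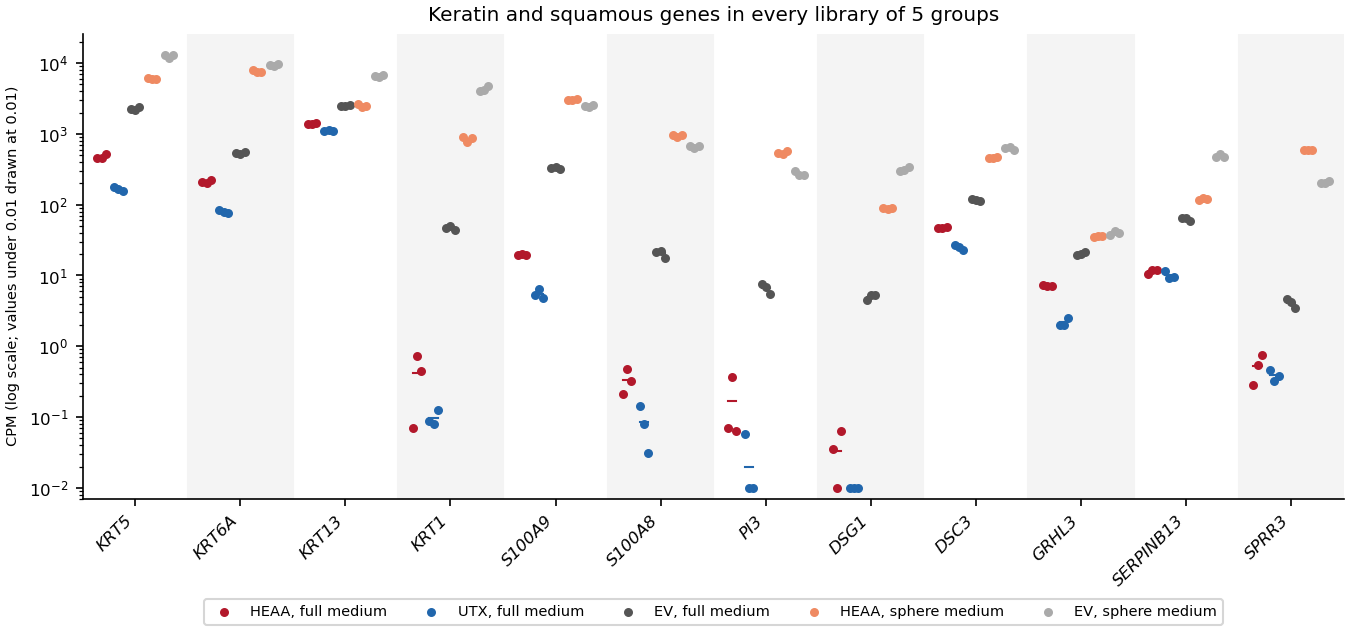
Level in CPM (log scale, y axis) of 12 keratin and squamous genes in each library of HEAA, UTX and EV cells in full medium and HEAA and EV cells in sphere medium, with a line at each mean and values under 0.01 are drawn at 0.01. In full medium HEAA libraries lie below EV libraries for all 12. For genes that include KRT5, KRT6A, S100A9 and GRHL3, HEAA libraries lie between UTX and EV libraries.

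Genes of cell-matrix adhesion, actin and matrix were mostly higher. Of 20 integrin and laminin genes 15 were higher and 3 lower (median 0.58), the lower ones being ITGA1, ITGB8 and LAMA4. LAMA3, a chain of laminin 332 in the basement membrane under epithelia, had 499, 540.3 and 540.1 CPM in HEAA libraries against 204, 204 and 197 CPM in EV libraries. ITGB6, the beta chain of an integrin that activates TGF-beta, had 237, 252 and 249.6 CPM in HEAA libraries against 94.7, 99.2 and 92.1 CPM in EV libraries, and ITGA3, the alpha chain of a laminin 332 receptor, rose 1.59-fold. Of 19 actin and contractile genes, many of them targets of serum response factor (SRF), 14 were higher and none was lower (median 0.47). TAGLN, the actin-binding protein transgelin, had 62.4, 60.2 and 64.0 CPM in HEAA libraries against 19.2, 20.2 and 19.6 CPM in EV libraries (3.16-fold, adjusted p = 4.6e-15), and MYL9, a myosin regulatory light chain, rose 3.87-fold. SRF itself had a log2 fold change of 0.04 ± 0.05, which did not pass.

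Of 21 target genes of YAP and TGF-beta 14 were higher (median 0.37), and ANKRD1 and NT5E were lower. PMEPA1, an inhibitor of TGF-beta signalling that it induces, had 419.8, 429 and 446 CPM in HEAA libraries against 166, 167 and 167 CPM in EV libraries, and AMOTL2 and CCN1, YAP targets, rose 1.65- and 1.72-fold. Of 16 matricellular and crosslinking genes 11 were higher (median 1.38), with 8 of them at least 2-fold, while LOX joined SPARC and SPP1 in falling. LOXL4, a collagen crosslinking enzyme, had 201, 219 and 214 CPM in HEAA libraries against 41.9, 48.2 and 40.4 CPM in EV libraries, and TNC, tenascin C, rose 4.90-fold. Of 15 collagen genes 10 were higher and 1, COL4A1, lower (median 0.48); the call of COL4A1 was lost with DESeq2 (adjusted p = 0.055) and with scaling by library totals (edgeR, adjusted p = 0.064). COL7A1, the collagen of anchoring fibrils under epithelia, had 359, 402 and 364 CPM in HEAA libraries against 171, 183 and 164 CPM in EV libraries. COL17A1, a hemidesmosome collagen, had 795, 862 and 867 CPM in HEAA libraries against 469.7, 484 and 467 CPM in EV libraries, and COL18A1 and COL4A5 rose 1.59- and 1.52-fold. Of 8 tested fibroblast markers 5 were higher and 1, LUM, lower. COL1A1, COL1A2, COL3A1, POSTN and FBLN1 are also in the collagen or matricellular lists, so these counts are not separate. POSTN, periostin, had 70 counts over the HEAA libraries against 0 over the EV libraries, at least 27.5-fold higher, and COL3A1 had 18 counts against 0. The fibroblast genes DCN, PDGFRA and THY1 held 1 to 6 counts over each group. COL1A2 held 18 counts over the HEAA and 23 over the EV libraries. By contrast, LUM held 2884 counts over the HEAA and 4302 over the EV libraries, and COL1A1 held 648 and 545.

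E-cadherin and N-cadherin both rose, in a list of cadherins and mesenchymal regulators with 5 of 10 higher and none lower. CDH1, the epithelial E-cadherin, had 699, 738 and 735 CPM in HEAA libraries against 446, 451 and 432 CPM in EV libraries (1.63-fold), CDH3, P-cadherin, rose 1.49-fold, and ZEB1, a repressor of CDH1 in mesenchymal cells, rose 3.32-fold to a mean of 0.458 CPM in HEAA cells, against 0.131 CPM in EV cells. The mesenchymal filament gene VIM, under 1 CPM in every library, and the regulators SNAI1, SNAI2 and ZEB2 did not pass the test. Of 10 protocadherins 8 were higher and 1, FAT3, lower (median 0.53). PCDH7 had 62.1, 65.8 and 62.4 CPM in HEAA libraries against 19.6, 17.4 and 17.6 CPM in EV libraries (3.49-fold), and FAT1, FAT2 and PCDHGC3 rose 1.47-, 1.43- and 1.56-fold; PCDHGC3 shares exons with its gene cluster. Of 17 neuronal adhesion and guidance genes 8 were higher and 5 lower, with large changes both ways. The semaphorin co-receptors NRP2 and PLXNA2 rose 2.96- and 2.25-fold, while TENM2, a teneurin adhesion protein, had 2.44, 3.37 and 2.80 CPM in HEAA libraries against 24.0, 23.9 and 23.9 CPM in EV libraries. SEMA3D, a secreted semaphorin, had 15.9, 15.0 and 15.5 CPM in HEAA libraries against 116, 122 and 117 CPM in EV libraries. The other falls were CNTN1, PLXNA4 and SEMA3A.

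Feedback genes of FGF receptor and MAPK signalling were more often lower, 10 of 21 against 5 higher. For this and the next 3 lists the shares over all genes tested were 25.3% lower and 23.2% higher. DUSP6, a phosphatase of ERK, had 10.7, 12.1 and 11.7 CPM in HEAA libraries against 23.8, 22.4 and 25.5 CPM in EV libraries (2.08-fold), and ETV4, an ETS factor induced by this pathway, fell 2.78-fold. EMP1 fell 1.81-fold, whereas DUSP4, a related phosphatase, rose 2.44-fold; the other risers were CCND1, EPHA2, EPHA4 and IER3. Of 11 FGF receptors and ligands 3 were higher and 4 lower. FGFR2 had 224, 229 and 226 CPM in HEAA libraries against 87.0, 90.8 and 87.3 CPM in EV libraries (2.56-fold, adjusted p = 2.5e-16), and FGFR3, the receptor mutated in many bladder tumours, had 117, 125 and 119 CPM in HEAA libraries against 142, 151 and 138 CPM in EV libraries, a 1.20-fold fall. FGFBP1, a secreted carrier of FGF, fell 2.78-fold to 88.7 ± 2.71 CPM in HEAA cells, against 247 ± 7.64 CPM in EV cells (SD, n = 3 each), and FGF18 rose 4.90-fold at under 1 CPM. Of 15 ERBB receptors and ligands 7 were lower and 3 higher. EGFR had 1022, 1044 and 1047 CPM in HEAA libraries against 1440.0, 1460.0 and 1421 CPM in EV libraries, its ligands AREG and EREG fell 1.54- and 1.63-fold, and the ligand TGFA rose 1.64-fold with HBEGF and ERBB2. AP-1 factors were mixed, with 5 of 12 higher and 4 lower; ATF3 rose 1.90-fold and FOSL2 1.35-fold, and MAFF fell 1.72-fold.

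Notch, BMP, WNT and insulin-like growth factor (IGF) genes each changed in both directions. Over all genes tested 25.3% were lower and 23.2% higher, and the counts in the Notch and BMP lists lay close to these shares. In the Notch list 6 of 18 were lower and 4 higher. NRARP, a Notch target, had 2.40, 2.05 and 1.59 CPM in HEAA libraries against 10.8, 11.7 and 11.2 CPM in EV libraries. HEY1, another target, had 3.46, 2.49 and 2.80 CPM in HEAA libraries against 9.99, 9.61 and 9.95 CPM in EV libraries, NOTCH3 fell 1.69-fold, and LFNG, a glycosyltransferase that tunes Notch receptors, rose 3.47-fold. In the BMP list 5 of 17 were lower and 3 higher; FST, the activin and BMP antagonist follistatin, had 7.06, 6.51 and 7.03 CPM in HEAA libraries against 51.1, 49.5 and 48.0 CPM in EV libraries, ID2 fell 1.48-fold and the receptor BMPR2 rose 1.47-fold. In the WNT list 14 of 25 were higher and 5 lower (median 0.35). DKK1, a secreted WNT antagonist, the receptor FZD2 and the ligand WNT7A rose 2.33-, 2.33- and 2.10-fold, and WNT5A, a ligand of the non-canonical pathway, fell 1.46-fold. In the IGF list 6 of 15 were lower and 5 higher; beside the fall of IGF2, its clearance receptor IGF2R rose 1.52-fold, the binding protein IGFBP2 rose 3.12-fold, and IGFBP6, which binds IGF2, fell 1.57-fold. Of 25 HOX genes, classic targets of Polycomb, 8 were lower, 1, HOXB5, was higher and none changed 2-fold; HOXA9, HOXA10 and HOXA11 fell 1.22-, 1.19- and 1.30-fold. The call of HOXB5 was lost with DESeq2 (adjusted p = 0.062) and without EV replicate 1 or 2 or HEAA replicate 1 or 3 (edgeR, adjusted p up to 0.14).

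The genes of the KMT2C/KMT2D complex and of PRC2 that passed the test changed by less than 1.5-fold. In the KMT2C/KMT2D complex without KDM6A, KMT2C, KMT2D and NCOA6 rose 1.19-, 1.10- and 1.19-fold, PAXIP1, PAGR1, WDR5 and DPY30 fell 1.25-, 1.37-, 1.35- and 1.30-fold, and ASH2L and RBBP5 did not pass. The call of KMT2D was lost with no filter on low counts and without each of the 6 libraries in turn (edgeR, adjusted p of 0.082 to 0.22). In PRC2, the methyltransferase EZH2 had 76.4, 81.1 and 77.7 CPM in HEAA libraries against 111, 108 and 108 CPM in EV libraries (1.39-fold), the core subunit EED and the accessory subunit MTF2 fell 1.42- and 1.45-fold, EZH1 and JARID2 rose 1.21- and 1.16-fold, and SUZ12 had a log2 fold change of -0.09 ± 0.04. KDM6B, another H3K27 demethylase, had 21.2, 22.3 and 22.1 CPM in HEAA libraries against 15.2, 15.0 and 15.7 CPM in EV libraries (1.43-fold, adjusted p = 8.3e-08). Of 14 genes listed as demethylases of lysine 4 or 9 of histone H3, 9 were higher and 1, KDM1A, was lower. KDM5B had 121, 116 and 116 CPM in HEAA libraries against 64.0, 64.1 and 61.1 CPM in EV libraries, and KDM4A and KDM7A rose 1.39- and 1.65-fold.

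Among metabolic lists, most genes of cholesterol and fatty acid synthesis were lower, while PPAR targets and hypoxia and glycolysis genes changed in both directions. Of 26 cholesterol synthesis genes 19 were lower and 1, PMVK, higher (median -0.31), with ACAT2, CYP51A1, FDPS and IDI1 down 1.44-, 1.45-, 1.41- and 1.48-fold. The call of PMVK was lost with DESeq2 (adjusted p = 0.069), with no filter on low counts, and without EV replicate 1 or 2 or HEAA replicate 2 or 3 (edgeR, adjusted p up to 0.34). Of 21 fatty acid synthesis genes 13 were lower and 3 higher (median -0.27). SCD, the stearoyl-CoA desaturase, had 111, 115 and 118 CPM in HEAA libraries against 299, 324 and 316 CPM in EV libraries (2.73-fold, adjusted p = 1.4e-17), SREBF1, the transcription factor of this pathway, fell 1.80-fold, ELOVL7 fell 1.85-fold and FADS3 rose 1.97-fold. PPAR targets split 6 higher to 5 lower of 15: the fatty acid oxidation genes ACADVL and CPT1A rose 1.29- and 1.38-fold and the lipid droplet gene PLIN2 fell 1.45-fold. Of 30 hypoxia and glycolysis genes 13 were lower and 6 higher. The glycolytic enzymes ENO1, GPI, PFKM and TPI1 fell 1.41-, 1.32-, 1.35- and 1.38-fold.

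Stress and amino acid genes changed in both directions. PHGDH, which commits glucose carbon to serine, had 54.4, 52.9 and 52.0 CPM in HEAA libraries against 112, 118 and 119.6 CPM in EV libraries (2.19-fold), and SHMT2 of mitochondrial folate metabolism fell 1.37-fold. SLC7A11, the cystine transporter, had 297, 295 and 304 CPM in HEAA libraries against 156, 148 and 147 CPM in EV libraries and SESN2, a stress sensor upstream of mTORC1, rose 1.67-fold, in a list with 8 of 21 lower and 6 higher, which became 6 lower and 8 higher with scaling by library totals. Of 24 antioxidant genes of NRF2 14 were higher and 6 lower (median 0.33); ALDH3A1, an aldehyde dehydrogenase, rose 2.70-fold and the exporter ABCC3 1.52-fold. In the aryl hydrocarbon receptor list 3 of 9 were lower and 2 higher, with the receptor AHR and its targets CYP1A1 and CYP1B1 down 1.80-, 1.32- and 1.89-fold. These counts lay close to the shares over all genes tested, 25.3% lower and 23.2% higher. DESeq2 called 3 lower and 3 higher, and the list median was 0.12, so the named falls do not stand for the list. Of 15 retinoid genes 8 were higher and 2 lower. ALDH1A3, which makes retinoic acid, had 169.5, 160.1 and 169 CPM in HEAA libraries against 55.3, 56.0 and 54.9 CPM in EV libraries (3.004-fold, adjusted p = 5.8e-18), DHRS3 and RDH10 rose 1.80- and 1.33-fold, and DHRS9 fell 2.22-fold.

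Immune genes showed no common direction. Of 28 interferon-stimulated genes 11 were higher and 9 lower, and of these calls 4 higher and 1 lower were at least 2-fold. The sensors of double-stranded RNA OAS1, OAS2 and OAS3 fell 1.63-, 2.37- and 1.47-fold and IFIT1 1.62-fold. These named genes were all among the 9 lower ones and do not stand for the list, whose median log2 fold change was 0.01. Of 17 antigen presentation genes 9 were higher and 3 lower. B2M, the light chain of class I molecules, had 784, 768 and 785 CPM in HEAA libraries against 526, 546 and 534 CPM in EV libraries, the peptide trimmer ERAP1 rose 1.15-fold, and the immunoproteasome subunits PSMB8 and PSMB9 fell 1.24- and 1.31-fold with PSMB10. The call of PSMB10 was lost with library totals and without EV replicate 2 or 3 or HEAA replicate 1 (edgeR, adjusted p up to 0.085). Cytokine and NF-kB genes split 7 higher to 7 lower of 24, with IL11 and LIF up 3.02- and 1.45-fold and IL18 and NFKBIA down 1.40- and 1.48-fold. Among mucins and surface glycoproteins 5 of 10 were higher: MUC4 had 15.0, 14.8 and 12.4 CPM in HEAA libraries against 2.20, 1.91 and 2.06 CPM in EV libraries (6.84-fold), MUC20, CD24 and CD44 rose 3.96-, 2.79- and 1.77-fold, and MUC15 was lower. EPCAM and MUC16 were also called lower, but the call of EPCAM was lost with library totals and with a stricter filter on low counts (edgeR, adjusted p up to 0.11), and that of MUC16 with both of these, with DESeq2 (adjusted p = 0.14), with the replicate number as a block (edgeR, adjusted p = 0.062) and without each of the 6 libraries in turn. Of the leukocyte and endothelial markers, CD68, a lysosomal protein also found outside macrophages, rose 2.54-fold, PECAM1 rose 1.41-fold and VWF fell 2.73-fold, all at under 7 CPM. The call of PECAM1 was lost with no filter on low counts and without EV replicate 3 or HEAA replicate 2 or 3, with an adjusted p of up to 0.12 by edgeR.

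HEAA was compared directly with wild type UTX to ask which changes differ when the catalytic residues are mutated. In full medium 2442 genes were higher in HEAA than in UTX cells (12.4% of the genes tested) and 1756 were lower (8.95%), and at least 2-fold differences were found for 136 and 47 genes (0.693% and 0.239%). Without HEAA replicate 3 in full medium, 1591 genes were higher in HEAA cells. Against the same EV libraries, HEAA cells had 4554 higher and 4975 lower genes and UTX cells 5583 and 5736; these counts share the EV libraries and were not tested against each other. In full medium, all 3 HEAA libraries lay below all EV libraries and above all UTX libraries for 2213 genes (11.3%), and above all EV and below all UTX libraries for 1739 genes (8.86%).

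Replication and ribosome biogenesis genes were more abundant with HEAA than with UTX. HEAA cells had more RNA than UTX cells for 36 of 42 replication genes (median log2 fold change 0.27) and 23 of 25 ribosome biogenesis genes (median 0.29), and for none was it lower, also by DESeq2 and at an unadjusted p under 0.05. The libraries fell in the order UTX, HEAA, EV without overlap for 37 and 23 of these genes. MCM6, for example, had 111, 100.4 and 107 CPM in HEAA libraries, 74.8, 73.8 and 69.7 CPM in UTX libraries and 172, 178 and 172 CPM in EV libraries. Of the ribosomal protein genes 0 of 40 were higher and 0 lower in HEAA than in UTX cells by edgeR, with a median of -0.02; at an unadjusted p under 0.05 0 were higher and 1 lower, and DESeq2 called 0 in either direction. Among the other metabolic lists, 9 of 29 respiratory chain genes, 10 of 26 cholesterol genes, 9 of 21 fatty acid genes and 7 of 13 mitochondrial RNAs were higher in HEAA cells. Of the S-phase entry genes 12 of 22 were higher in HEAA cells, E2F1 by 0.61 ± 0.06 on the log2 scale, and CDKN1A and CDKN2B were lower, with log2 fold changes of -0.35 and -0.28.

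**Figure D5:**
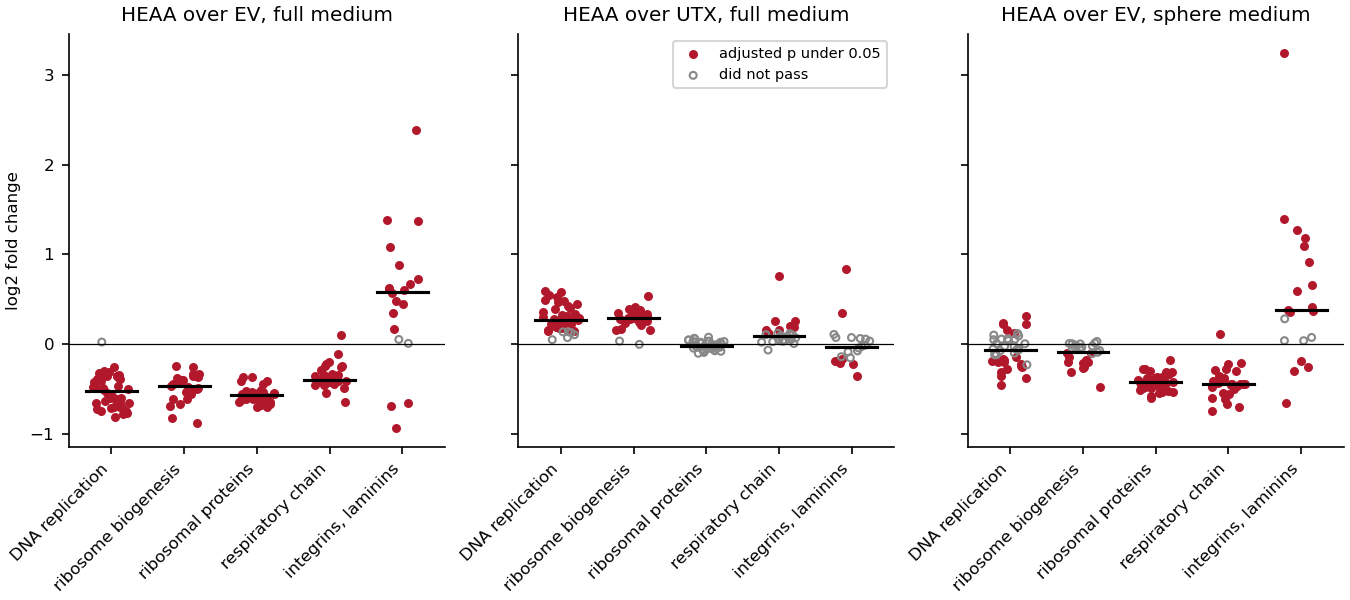
Log2 fold change of each tested member of 5 gene lists (y axis) for HEAA over EV in full medium (left), HEAA over UTX in full medium (middle) and HEAA over EV in sphere medium (right); filled red dots had adjusted p under 0.05, open dots did not pass, and black lines are medians. Replication and ribosome biogenesis genes lie below 0 on the left and above 0 in the middle, while ribosomal protein genes lie below 0 on the left and near 0 in the middle.

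Several of the largest falls were less deep with HEAA. KRT5 had 463, 461 and 512 CPM in HEAA libraries against 177, 167 and 158 CPM in UTX libraries (log2 fold change 1.52 ± 0.05, adjusted p = 2.3e-14). KRT6A was higher in HEAA cells by 1.41 ± 0.05, S100A9 by 1.85 ± 0.07 and TFPI2 by 1.54 ± 0.06 on the log2 scale. The largest excesses of HEAA over UTX were MME, the surface peptidase neprilysin, at 4.98, 5.09 and 4.26 CPM in HEAA libraries against 0.727, 0.636 and 1.07 CPM in UTX libraries (5.78-fold), SPARC (3.79-fold), the sialic acid-binding lectin CD22 (3.64-fold), S100A9 (3.61-fold), GRHL3 (3.27-fold) and FRY (3.21-fold). CD22 differed from the others in that it did not pass the test against EV, with 4.17, 3.15 and 3.50 CPM in HEAA libraries against 2.94, 3.22 and 2.28 CPM in EV libraries. Among the largest deficits of HEAA against UTX, MOXD1, a monooxygenase-like protein, was lower 2.65-fold, the zinc-finger gene ZNF350 2.39-fold, GJA5 2.27-fold, COL4A3 2.21-fold, and MFAP3L and the pseudogene GOLGA8DP 2.12- and 2.12-fold. GOLGA8DP belongs to a family of near-identical copies, so its counts are uncertain. GJA5 had 52.9, 57.6 and 55.9 CPM in HEAA libraries, 128, 127 and 124 CPM in UTX libraries and 6.38, 5.63 and 5.71 CPM in EV libraries. Some rises were higher with HEAA than with UTX: MSN had 35.2, 35.9 and 37.1 CPM in HEAA libraries against 20.2, 18.4 and 18.7 CPM in UTX libraries (log2 fold change 0.91 ± 0.05), TNC averaged 29.6 ± 1.72 CPM in HEAA cells against 13.9 ± 0.218 CPM in UTX cells (SD, n = 3 each), and KLK6, KLK10 and KLK11 were also higher in HEAA cells. The call of KLK11 against UTX was lost with DESeq2, when only these groups were fitted, and without HEAA replicate 3 or UTX replicate 1 or 2 (DESeq2 or edgeR, adjusted p up to 0.43). For FGFR2 the log2 fold change of HEAA over UTX was -0.09 ± 0.04, which did not pass. The uroplakins UPK1B, UPK2 and UPK3B were lower in HEAA than in UTX cells, with log2 fold changes of -0.14, -0.47 and -0.22.

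Whether the effect of HEAA against EV was the same in both media was tested directly. The difference between the 2 effects, full minus sphere medium, was above 0 for 2803 genes (14.3%) and below 0 for 3678 (18.7%) at an adjusted p under 0.05. In sphere medium itself 3906 genes were higher in HEAA cells (19.9%) and 4212 lower (21.5%). Of the genes higher in full medium 2087 were also higher in sphere medium, which is 45.8% of the calls in full and 53.4% of those in sphere medium, and 2348 were lower in both (47.2% and 55.8%). For 434 genes HEAA was higher in full and lower in sphere medium, and for 515 the reverse. The difference of effects passed the test for each of them, which opposite calls in the same fit made all but certain.

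The fall of replication genes was larger in full than in sphere medium. In sphere medium 14 of 42 were lower and 6 higher (median -0.07), and the difference of effects was below 0 for 39 of them and above 0 for none. In sphere medium MCM3 had 97.2, 96.5 and 96.9 CPM in HEAA libraries against 105.3, 103 and 114 CPM in EV libraries. For ribosome biogenesis the difference was below 0 for 21 of 25. Ribosomal protein genes were lower in both media, 40 of 40 in sphere medium (median -0.43), with the difference below 0 for 14. The respiratory chain genes were lower in both as well, 28 of 29 in sphere medium.

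Several squamous genes fell in full medium and rose in sphere medium. Of 18 cornified envelope genes 14 were higher and 1 lower in HEAA than in EV cells in sphere medium, and the difference of effects was below 0 for 10. Over all genes tested 19.9% were higher and 21.5% lower in sphere medium. Some of the 18 genes, SPRR1A among them, had 0 counts in both groups in full medium and passed the count filter through other groups. The counts of this list in the 2 media are therefore not alike. In sphere medium SPRR3 had 600.3, 592 and 589.6 CPM in HEAA libraries against 199.5, 201 and 217 CPM in EV libraries, where full medium showed a 7.49-fold fall (difference of effects -4.43 ± 0.19, adjusted p = 4.9e-13). S100A8 had 961, 912 and 951 CPM in HEAA libraries against 667, 636 and 670.5 CPM in EV libraries in sphere medium, a rise of 0.52 ± 0.06 on the log2 scale where full medium showed the 60.7-fold fall. PI3 likewise rose 1.98-fold in sphere medium, and KRT4 rose 4.74-fold. KRT1 and DSG1 fell in both media but less in sphere medium, 5.05- and 3.51-fold. Of 24 cytokine genes 18 were higher in HEAA cells in sphere medium, and the difference was below 0 for 14 and above 0 for 1.

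For other genes the log2 fold change was higher in full than in sphere medium. In full medium AHNAK2, a large scaffold protein, had 106, 114 and 113 CPM in HEAA libraries against 23.4, 26.5 and 24.3 CPM in EV libraries. In sphere medium it had 161, 157 and 164 CPM in HEAA libraries against 214, 249 and 170.3 CPM in EV libraries, a difference of effects of 2.56 ± 0.13. MCF2L, LBH and the fructose transporter SLC2A5 had differences of 2.77 ± 0.16, 2.29 ± 0.11 and 2.27 ± 0.40. For BMP3 the difference was 2.61 ± 0.58, and in sphere medium it had 0, 0.0425 and 0.0325 CPM in HEAA libraries against 1.64, 2.19 and 2.10 CPM in EV libraries. Integrin and laminin genes were more often higher than lower in both media, with 12 of 20 higher and 4 lower in sphere medium. Of 15 collagen genes 3 were higher and 3 lower there, with the difference above 0 for 8.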

How the data were processed

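RNA of UMUC1 cells was sequenced with Illumina TruSeq libraries after Qiagen RNeasy extraction, per the labels' protocols. The deposited table holds estimated counts per gene for 18 libraries of the experiment with UTX constructs, whole numbers in the files; Salmon 0.8 and DESeq2 are named in the submitters' processing notes with hg19 and GRCh37, but neither the annotation nor the step from transcripts to genes was stated. A second deposited table, of another experiment, was not used. Counts were not normalized by the authors, per the values. Gene names came from the file for 26160 genes and from the reference table for 31461, and 667 had none; 50 tested genes shared a symbol with another.

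All 18 libraries entered 1 fit in edgeR 4.0.16 (R 4.3.3) with TMM scaling, filterByExpr by group, a quasi-likelihood test and Benjamini-Hochberg adjustment over 19629 genes; 16276 of 58288 genes were 0 in every library. The common biological coefficient of variation was 4.58%. Calls are adjusted p values under 0.05, standard errors are the log2 fold change over the root of F, and CPM use TMM factors. edgeR was tested on simulated counts. Replicates were not identical libraries. The contrasts were HEAA against EV, HEAA against UTX, UTX against EV and HEAA against EV in sphere medium, and the difference of the HEAA effect between media. Alternatives were DESeq2 1.42.0, other scalings and filters, only the groups compared, a replicate block and each library left out.

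The comparison and the 55 gene lists were chosen with earlier results of these data known. Named genes are KDM6A, the 10 largest rises and falls (called, mean of at least 2 CPM, no overlap), the 8 largest changes in CPM per direction, up to 4 called members per list by smallest adjusted p with role-defining members that were not called, and 6 per direction for HEAA against UTX and for the difference between media; all KMT2C/KMT2D, PRC2, uroplakin and keratin members could be named. Genes named because 5 or fewer of a list moved 1 way were chosen after their values were seen. Bounds use a floor of 3 counts over a group, and 95% intervals are exact; both cover counting error only. A few genes chosen by these rules are not reported here.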

Additional observations from a re-analysis of the deposited data

Results flagged for a closer look

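Of 245 genes named by rule, 59 reported here had a log2 fold change of HEAA over EV in full medium that passed the test, and differed from that in sphere medium by at least 1 on the log2 scale with an adjusted p under 0.05 (edgeR, test of the difference itself). The 245 include genes chosen for large changes in full medium or large differences between media. The 59 are therefore a listing and not a result about the named genes. The share of all genes tested that meet these conditions was not counted. The values below are these differences, full minus sphere medium; 28 were above 0 and 31 below.

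Below 0 were the keratins KRT1 (-4.47), KRT4 (-4.99), KRT5 (-1.2), KRT6A (-1.02), KRT20 (-3.29), KRT23 (-5.44) and KRT78 (-3.11). Other squamous genes below 0 were S100A8 (-6.44), S100A9 (-4.34), PI3 (-6.3), SERPINB2 (-1.76), SERPINB3 (-5.85), SPRR2D (-5.0), SPRR3 (-4.43), DSG1 (-5.21), CERS3 (-1.47), SDR9C7 (-5.35), DHRS9 (-1.5) and GRHL3 (-1.35). In full medium SDR9C7 held 0 counts over the HEAA and 5 over the EV libraries, and its call there was lost under several alternatives. KRT20, SPRR2D and DSG1 held 2, 2 and 3 counts over the HEAA libraries. The size of these differences is therefore uncertain. Secreted, signalling and matrix genes below 0 were TFPI2 (-4.23), SPP1 (-2.61), THBS1 (-2.72), FST (-1.56), EREG (-1.59), SEMA3D (-1.09), NRARP (-2.27), ETV4 (-1.17), MUC20 (-1.72), GJA5 (-1.04) and VWF (-1.33). For KDM6A the difference was -1.54; in sphere medium it averaged 943 ± 15.3 CPM in HEAA and 8.18 ± 0.784 CPM in EV cells (SD, n = 3 each). THBS1 had 96.6, 95.2 and 87.9 CPM in HEAA libraries against 12.7, 11.1 and 8.45 CPM in EV libraries in sphere medium, and 2812, 3122 and 3033 CPM in HEAA libraries against 2288, 2356 and 2173 CPM in EV libraries in full medium. Several of the squamous genes were far more abundant in sphere than in full medium in EV cells, as with S100A8 at 658 ± 19.0 CPM in sphere against 20.5 ± 2.27 CPM in full medium (SD, n = 3 each).

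Above 0 were the matrix, adhesion and cytoskeletal genes CCN1 (1.38), TAGLN (1.23), COL7A1 (1.26), LUM (1.13), PCDH7 (1.37), NRP2 (2.26), SLITRK6 (1.57), MFAP3L (1.22) and AHNAK2 (2.56). Secreted and signalling genes above 0 were BMP3 (2.61), IGFBP2 (1.36), IGFBP6 (1.77), FZD2 (1.02), MCF2L (2.77), LBH (2.29), KLK10 (1.45) and KLK11 (1.07). The others were MUC4 (3.01), CD24 (1.08), KRT16 (2.39), CDKN2B (1.99), ATF3 (1.06), SESN2 (1.11), ATG9B (1.07), ALDH1A3 (1.07), DHRS3 (1.41), MOXD1 (2.02) and SLC2A5 (2.27). MUC4 had 0.727, 0.977 and 0.455 CPM in HEAA libraries against 0.634, 0.974 and 0.874 CPM in EV libraries in sphere medium. Groups of 3 libraries were too small to look for single outlying libraries.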

How the results depend on the processing

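The counts of genes higher and lower in HEAA than in EV cells were 4056 and 4524 with DESeq2, 4618 and 4878 with DESeq2's size factors in edgeR, 5267 and 4291 with library totals only, 4061 and 5170 with no filter on low counts, 4369 and 4426 with a stricter filter, and 4687 and 5353 when only the groups compared were fitted. These stayed within 1.5 times the counts in the report, and no scaling moved the median of all genes by over 0.1 (log2), the largest median being 0.07 with library totals. Leaving out each library in turn gave 3732 to 3887 genes higher and 4791 to 5027 lower, and 5.26 to 5.31 for the log2 fold change of KDM6A. Against UTX it gave 1591 to 2234 higher and 1416 to 1514 lower; 1591, without HEAA replicate 3, was the value outside 1.5 times, in a fit with fewer samples. For the difference between media it gave 2119 to 2486 above 0 and 3566 to 4139 below. Same-numbered replicates did not deviate together (correlations of -0.06 to 0.05). That gives no sign that the numbers pair the samples, but it cannot exclude a small shared effect. With the replicate block counts were 4458 and 4929 against EV, 2370 and 1681 against UTX, and 2718 and 3598 for the difference between media. Among single named genes the block ended the call of MUC16 alone (adjusted p = 0.062, edgeR). The block with only the groups compared, chosen after seeing the data, gave 4764 and 5517. For 337 results on single named genes that were chosen by rule or named as called, 4652 of 4729 values under the alternatives kept direction and side of the threshold, none reversed, and 77, in 18 genes, no longer passed. For 13 of these genes a choice other than leaving out a library ended the call: KLK11 against UTX, and ATP5F1A, COL4A1, EPCAM, HOXB5, JUP, KMT2D, MUC16, PECAM1, PKP2, PMVK, PSMB10 and SDR9C7 against EV. For CGN, DSC1, GOLGA8DP, KRT2 and PKP1 against EV, leaving out a library did. Of 21 further genes named as not passing, 7 passed under at least 1 alternative (KRT14, KRT8 and PPARG with library totals, PPARG and, against UTX, FGFR2 with a stricter filter, KRT6B and SUZ12 under several, and KRT19 with the block and only the groups compared), and 11, with values near 0 or few counts, changed sign under an alternative in which they did not pass. With 3 libraries a group, genes under about 1 CPM carry wide errors, and folds against a group with few counts rest on their counting intervals.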
